A study of Mus musculus with 9 samples.

Results

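TGF-beta signalling was followed through 10 genes that encode its ligands (Tgfb1, Tgfb2 and Tgfb3), its receptors (Tgfbr1, Tgfbr2 and Tgfbr3) and the latent TGF-beta binding proteins (Ltbp1, Ltbp2, Ltbp3 and Ltbp4). They were taken by symbol from a table of 35275 genes, and all 10 were found. RNA was sequenced from the gastrocnemius, a calf muscle, of wild type C57BL/6J mice. The animals were 8 to 10 weeks old and carried an osmotic minipump, an implanted capsule that releases its filling slowly. In the ammonium acetate group (5 libraries) the pump released 2.5 mmol per kg per day, and in the PBS group (4 libraries) it held sterile phosphate-buffered saline. The muscle was collected 4 weeks after implantation, so both groups share the surgery and the pump. The load is an infusion of an ammonium salt into otherwise untreated mice, and the labels do not tie each library to an animal of its own. The study asked how skeletal muscle responds to excess ammonia.

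Cells secrete TGF-beta in a latent form, in which the ligand stays wrapped in its own propeptide. Inside the cell this complex is usually joined to a latent TGF-beta binding protein, which anchors it to fibrillin and fibronectin in the matrix until integrins or proteases free it. The free ligand binds the type II receptor, which brings in and phosphorylates the type I receptor, and the type I receptor then phosphorylates the Smad proteins that enter the nucleus. In skeletal muscle the pathway is known for holding back the differentiation of muscle precursors and for driving fibrosis.

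The values were FPKM as deposited by the authors, that is fragments scaled to gene length and to library size, so that levels can be set side by side between genes. The libraries held from 24930547 to 41780251 reads, recovered from the steps of the FPKM values. Muscle fibre markers summed to between 64229 and 95262 FPKM, and skin markers (keratins and loricrin) stood out in ammonium acetate 5 (56.6 FPKM summed, against at most 1.22 elsewhere). Ammonium acetate libraries 6 and 8 stood apart. For each library the median deviation of the 2836 longest tested genes (at least 4428 bases) minus that of the 2835 shortest (at most 1859 bases) was taken on the log2 scale. It was -0.50 in ammonium acetate 6 and -0.47 in ammonium acetate 8, and from -0.02 to 0.33 in the other 7 libraries. Of the 10 members, 8 are longer than 4428 bases. The log2 fold changes of the tested members, and some of the group values, are therefore given with and without ammonium acetate 6 and 8.

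The promoters of both signalling receptors and of the most abundant binders are shown, because within each pair of genes 1 member had low values in ammonium acetate 6 and 8 and the other did not. Sequences are the bases before a RefSeq transcription start on GRCm38.p6, which is the build of the table, and 8 of the 10 members had an entry. Tgfbr1 and Ltbp1 have 2 RefSeq starts and Ltbp4 has 3. Only the start nearest to that of the gene in the table was used, so the other promoters are not described. The capitals mark the letters GGGCGG or its complement CCGCCC, the core of the GC box bound by Sp1. The Tgfbr1 window lies at chr4:47352972-47353221 on the plus strand, that of Tgfbr2 at chr9:116175364-116175613 on the minus strand and that of Ltbp3 at chr19:5740650-5740899 on the plus strand. For Ltbp4 the 170 bases outside the gene model are given, at chr7:27337693-27337862 on the minus strand.
Tgfbr1: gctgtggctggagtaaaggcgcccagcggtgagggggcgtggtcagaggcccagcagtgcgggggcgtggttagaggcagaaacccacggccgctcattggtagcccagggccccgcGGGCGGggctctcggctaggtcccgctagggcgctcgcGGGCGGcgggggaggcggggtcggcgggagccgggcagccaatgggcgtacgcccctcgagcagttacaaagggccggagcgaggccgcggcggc
Tgfbr2: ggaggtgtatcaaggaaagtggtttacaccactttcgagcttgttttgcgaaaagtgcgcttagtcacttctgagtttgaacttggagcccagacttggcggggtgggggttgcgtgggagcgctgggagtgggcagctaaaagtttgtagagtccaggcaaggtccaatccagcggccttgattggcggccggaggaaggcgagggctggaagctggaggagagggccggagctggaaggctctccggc
Ltbp3: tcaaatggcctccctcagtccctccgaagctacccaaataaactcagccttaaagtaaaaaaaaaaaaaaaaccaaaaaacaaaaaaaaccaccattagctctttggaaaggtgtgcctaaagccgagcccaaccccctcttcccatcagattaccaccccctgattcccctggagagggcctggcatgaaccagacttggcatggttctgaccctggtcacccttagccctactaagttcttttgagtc
Ltbp4: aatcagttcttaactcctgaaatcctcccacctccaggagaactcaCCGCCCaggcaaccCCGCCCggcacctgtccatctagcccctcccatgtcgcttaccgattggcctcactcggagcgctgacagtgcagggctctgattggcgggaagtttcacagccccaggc

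The windows differed in base composition. G and C made up 74.8% of the 250 bases before the start in Tgfbr1, 58.4% in Tgfbr2, 64.4% in Ltbp4 and 47.2% in Ltbp3, and the median over 32851 promoter windows was 52.4%. The GC box letters, searched on both strands, occurred 2 times in the Tgfbr1 window and 3 times in the full Ltbp4 window (2 of them in the part shown), and not in those of Tgfbr2 or Ltbp3. Of all promoter windows, 32.7% held them. Tgfb1 had 5 matches and Ltbp2 had 2. The TATA box letters TATAAA, present in 12.4% of all windows, were found in the window of Tgfb2 alone among the 8 members with an entry. CAGACA, the Smad-responsive CAGA box that 17.1% of windows hold, was likewise found in Tgfb2 alone. Among members with an entry, ammonium acetate 6 and 8 were the lowest 2 libraries for Ltbp4, Tgfbr2, Tgfb2 and Ltbp1. Of these only Ltbp4 had the GC box. Of the others with an entry, Tgfb1, Tgfbr1 and Ltbp2 had it and Ltbp3 did not. Tgfb3 and Tgfbr3 had no entry, and the part of these sequences in the members' values was not tested.

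The abundant transcripts of the family in this muscle were a binder and a ligand. In PBS the order of the mean level, in FPKM, was Ltbp4 (25.7), Tgfb3 (14.6), Ltbp3 (9.89), Tgfbr2 (9.74), Tgfbr1 (5.95), Tgfbr3 (5.30), Tgfb2 (4.33), Tgfb1 (3.54), Ltbp1 (2.67) and Ltbp2 (0.106). The ranges of the 4 PBS libraries did not overlap between Ltbp4 and Tgfb3, between Tgfb3 and Ltbp3, between Tgfbr2 and Tgfbr1, or between Ltbp1 and Ltbp2. The other neighbours in this order overlapped. Ltbp4 ranked above 84.8% of all tested genes by its PBS mean and Tgfb1 above 41.2%. In ammonium acetate Ltbp4 (16.7 FPKM) still had the highest mean, but its range overlapped that of Tgfb3 (13.5 FPKM). The ranges of Tgfbr2 (7.34) and Tgfbr1 (6.29) overlapped as well. Without ammonium acetate 6 and 8 neither pair overlapped. Ltbp4 was then at least 18.7 FPKM and Tgfb3 at most 15.3, and Tgfbr2 at least 7.80 and Tgfbr1 at most 6.89.

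**Figure D1:**
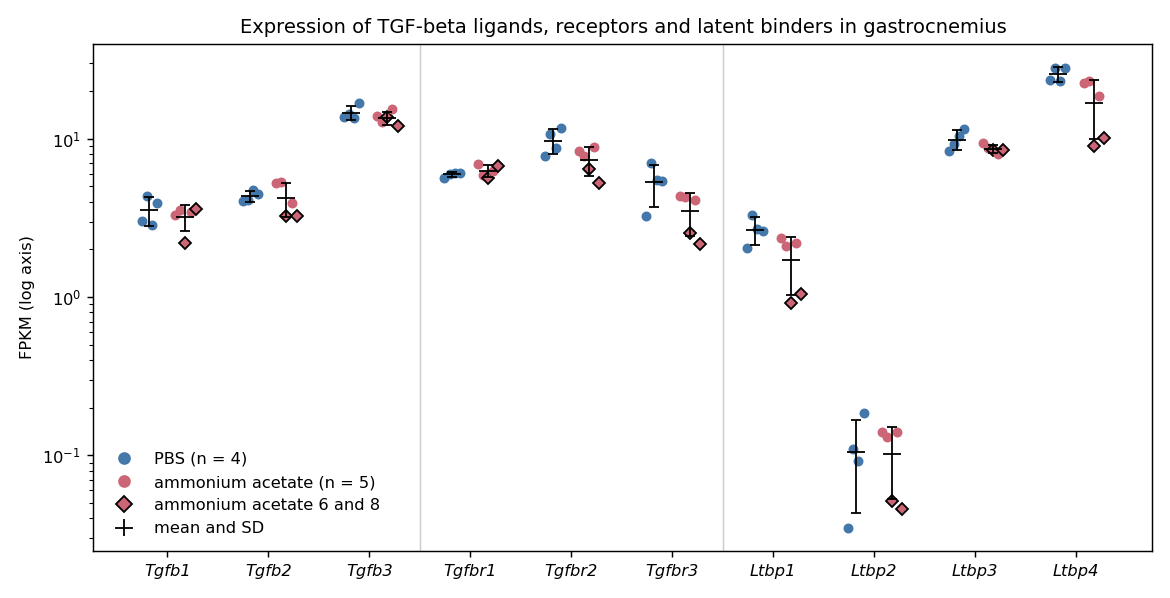
FPKM of the 10 members (log axis) in the 4 PBS and 5 ammonium acetate libraries, each point 1 library, with the mean and SD of each group and with ammonium acetate 6 and 8 as outlined diamonds. The diamonds lie at the bottom of the ammonium acetate group for Tgfb2, Tgfbr2, Tgfbr3, Ltbp1, Ltbp2 and Ltbp4, and among the other libraries for Ltbp3. For Tgfbr1, ammonium acetate 6 is the lowest of its group, just above PBS 4, and ammonium acetate 8 lies higher.

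Between the groups no member passed the test. Genes with a mean of at least 0.5 FPKM were tested with limma on log2(FPKM + 0.5), two-sided, at a Benjamini-Hochberg adjusted p of 0.05. That kept 11337 genes, among them 9 of the 10 members, all but Ltbp2. The count was 0 of 9 members, and over all genes it was 0 as well, which is 0% called. At an unadjusted p under 0.05 the test gave 4 of the 9, namely Ltbp4, Ltbp1, Tgfbr2 and Tgfbr3, all with lower means in ammonium acetate. After a correction for gene length within each library the members at that level were Ltbp4, Ltbp1 and Tgfbr1. Of these, Tgfbr1 had a higher mean in ammonium acetate. In that corrected fit 1006 of the 11337 tested genes reached the level. In the uncorrected fit 8.57% of all tested genes reached it, 5.36% on the lower and 3.21% on the higher side. Without ammonium acetate 6 and 8 it was 0 of 9 members, against 2.24% of all genes. The mean was lower in ammonium acetate for 8 of the 9 members, against 56.1% of all tested genes. The median log2 fold change of the 9 was -0.18, beside -0.03 over all tested genes and -0.19 over the 2836 longest. Without ammonium acetate 6 and 8 these medians were -0.17, -0.0013 and -0.05. In bulk muscle, fewer cells of a type and less RNA per cell cannot be told apart.

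**Figure D2:**
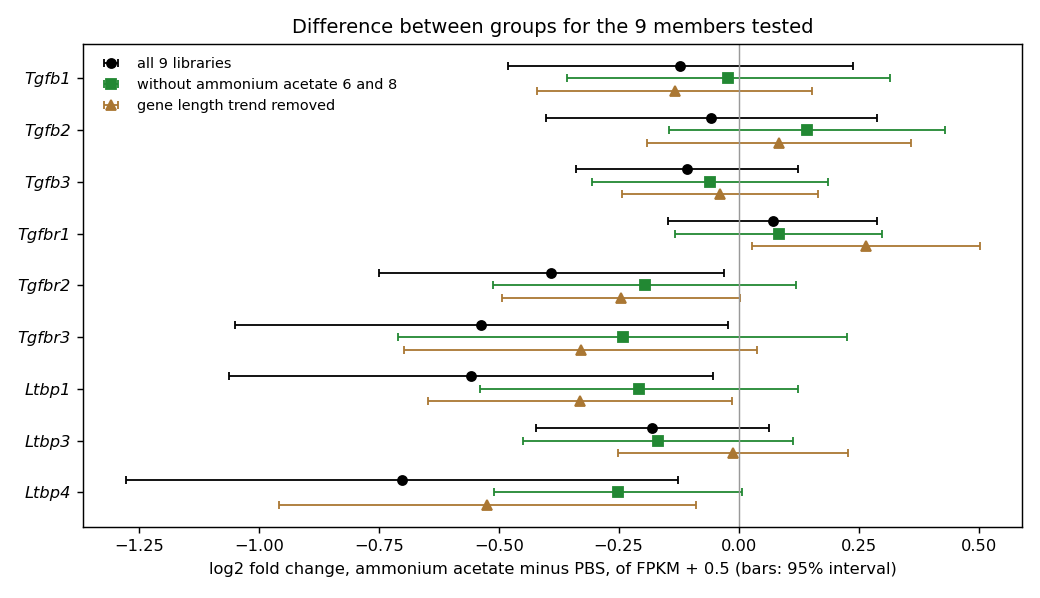
Log2 fold change of FPKM + 0.5 (ammonium acetate minus PBS, x axis) with its 95% interval for the 9 members tested, from all 9 libraries (circles), without ammonium acetate 6 and 8 (squares) and after a correction for gene length within each library (triangles). Ltbp4 goes from -0.70 to -0.25 without these 2 libraries, and Tgfbr1 lies above 0 in each of the 3 fits.

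Tgfb3 was the main ligand transcript in both groups. In mice this ligand is known for its part in palate fusion. Tgfb3 (ENSMUSG00000021253, chromosome 12, 86056744 to 86079041, mm10) measured 13.7, 14.4, 13.6 and 16.9 FPKM in PBS 4, 5, 7 and 8. In ammonium acetate 4 to 8 it measured 14.0, 12.7, 13.7, 15.3 and 12.0 FPKM. The groups overlapped, with PBS 8 highest and ammonium acetate 8 lowest, and the library with the largest Tgfb3 value had 1.41 times the smallest. Its log2 fold change came to -0.11 (95% interval -0.34 to 0.12, limma adjusted p = 0.643). It was -0.06 without ammonium acetate 6 and 8, -0.04 without PBS 8 and -0.07 without ammonium acetate 8. A 5150-base stretch of the locus is shared with Ttll5 on the opposite strand, which averaged 1.06 FPKM, and reads of the pair cannot be told apart where the strand setting is not given.

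Tgfb1, the best studied isoform and the one most tied to fibrosis, was a minor transcript here. Tgfb1 (ENSMUSG00000002603, chromosome 7, 25687002 to 25705077) measured 3.02, 4.37, 2.84 and 3.94 FPKM in the PBS libraries. It measured 3.31, 3.56, 2.18, 3.43 and 3.57 FPKM in ammonium acetate 4 to 8, on 122 to 287 reads over all libraries. Ammonium acetate 6 stood alone at the bottom, and the other 4 lay inside the PBS range. The log2 fold change of Tgfb1 was -0.12 (interval -0.48 to 0.24, limma adjusted p = 0.733), and -0.02 without ammonium acetate 6 and 8.

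Tgfb2, the ligand that depends most on betaglycan for receptor binding, was split within the ammonium acetate group. Tgfb2 (ENSMUSG00000039239, chromosome 1, 186623186 to 186705992) measured 4.03, 4.08, 4.73 and 4.49 FPKM in PBS. The ammonium acetate values were 5.27, 5.37, 3.27, 3.95 and 3.27 FPKM, so libraries 4 and 5 lay above every PBS library and 6, 7 and 8 below every one. Its SD was 1.04 FPKM in ammonium acetate and 0.333 in PBS. Between the groups the log2 fold change was -0.06 (interval -0.40 to 0.29, limma adjusted p = 0.874), and its direction turned to 0.14 without ammonium acetate 6 and 8.

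The summed ligand transcript ran from 20.8 to 25.3 FPKM with PBS and from 18.8 to 22.7 FPKM under ammonium acetate. Without libraries 6 and 8 the ammonium acetate sum ran from 21.6 to 22.7 FPKM. Tgfb3 made up 62.9% to 66.7% of the ligand sum in the PBS libraries and 64.7% ± 4.97 (SD, n = 5) under ammonium acetate. Its ammonium acetate mean share was 62.7% without libraries 6 and 8. Within the ammonium acetate group its share ran from 58.7% in library 5 to 71.5% in library 6. Tgfb1 contributed 15.7% ± 2.49 (SD, n = 4) and 15.3% ± 2.78 (SD, n = 5). The balance of ligand transcripts therefore differed between the groups by less than the spread within them.

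The receptors did not behave alike. Tgfbr1, the type I receptor kinase that phosphorylates the Smad proteins, had the narrowest range of the family. Tgfbr1 (ENSMUSG00000007613, chromosome 4, 47353222 to 47414931) measured 5.62, 5.99, 6.11 and 6.08 FPKM with PBS, then 6.89, 5.91, 5.66, 6.23 and 6.75 FPKM in ammonium acetate 4 to 8. The groups overlapped, with ammonium acetate 4, 7 and 8 above every PBS library. The log2 fold change of 0.07 (interval -0.15 to 0.29, limma adjusted p = 0.744) was the only 1 above 0 among the 9 members tested, and it was 0.08 without ammonium acetate 6 and 8. After a correction for gene length within each library it was 0.26 (limma adjusted p = 0.538).

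Tgfbr2, the type II receptor that binds the ligand first, was lower in both libraries that stood apart. Tgfbr2 (ENSMUSG00000032440, chromosome 9, 116087698 to 116175363) measured 7.78, 10.7, 8.80 and 11.7 FPKM in PBS. In ammonium acetate it measured 8.36, 7.80, 6.40, 8.87 and 5.27 FPKM. All 5 ammonium acetate libraries lay below the PBS mean of 9.74 FPKM, but only 6 and 8 lay below PBS 4, so the groups overlapped. The log2 fold change was -0.39 ± 0.16 (standard error, interval -0.75 to -0.03, limma adjusted p = 0.527), and -0.20 without ammonium acetate 6 and 8.

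Tgfbr3, which encodes the co-receptor betaglycan, varied more than either kinase. Tgfbr3 (ENSMUSG00000029287, chromosome 5, 107106570 to 107289629) measured 3.23, 7.07, 5.48 and 5.40 FPKM with PBS, then 4.37, 4.29, 2.53, 4.11 and 2.18 FPKM in ammonium acetate. PBS 4 lay among the ammonium acetate values, which in libraries 4, 5 and 7 kept within 4.11 and 4.37 FPKM. For Tgfbr3 the log2 fold change was -0.54 ± 0.24 (interval -1.05 to -0.02, limma adjusted p = 0.527), -0.24 without ammonium acetate 6 and 8, and -0.73 without PBS 4.

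As a ratio within each library, Tgfbr2 per Tgfbr1 was 1.39, 1.79, 1.44 and 1.92 in the PBS libraries. It was 1.21, 1.32, 1.13, 1.42 and 0.780 in ammonium acetate 4 to 8. The ranges overlapped through ammonium acetate 7 and PBS 4, and the ammonium acetate mean of 1.17 became 1.32 without libraries 6 and 8. Only ammonium acetate 8 had more type I than type II receptor transcript per length. Tgfbr3 per Tgfbr1 was 0.885 ± 0.247 across the PBS libraries (SD, n = 4), against 0.558 ± 0.167 under ammonium acetate (SD, n = 5), with PBS 4 at 0.576 inside the ammonium acetate range of 0.323 to 0.726. Without libraries 6 and 8 the ammonium acetate mean was 0.673.

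Ltbp4 was the most abundant member and the one with the largest difference between group means. In mouse models of muscular dystrophy, variation in this gene is known to modify the severity of fibrosis. Ltbp4 (ENSMUSG00000040488, chromosome 7, 27305136 to 27337692) measured 23.6, 27.9, 23.1 and 28.2 FPKM in PBS 4, 5, 7 and 8, on 3819 to 5198 reads. It measured 22.7, 23.2, 9.03, 18.7 and 10.1 FPKM in ammonium acetate 4 to 8, on 1248 to 4484 reads. Of the 5, 4 lay below every PBS library and ammonium acetate 5 lay just above PBS 7, so the groups touched. The log2 fold change was -0.70 ± 0.26 (interval -1.28 to -0.13, limma adjusted p = 0.527). Without ammonium acetate 6 and 8 the group mean was 21.5 ± 2.44 FPKM (SD, n = 3) and the log2 fold change -0.25, and after the correction for gene length it was -0.52 (limma adjusted p = 0.538). With libraries weighted by their quality it was -0.39, which did not reach an unadjusted p under 0.05. Of all tested genes 0.812% had a lower log2 fold change than Ltbp4, and of the 2836 longest 1.76% did.

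Ltbp1, a binder of all the latent ligand forms, followed Ltbp4. Ltbp1 (ENSMUSG00000001870, chromosome 17, 75005568 to 75392512) measured 2.05, 3.32, 2.68 and 2.62 FPKM with PBS, then 2.37, 2.09, 0.911, 2.19 and 1.05 FPKM in ammonium acetate. Libraries 6 and 8 were again lowest, on 156 and 247 reads, and the other 3 lay between PBS 4 and PBS 8. For Ltbp1 the log2 fold change was -0.56 ± 0.23 (interval -1.06 to -0.05, limma adjusted p = 0.527), and -0.21 without ammonium acetate 6 and 8.

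Ltbp3, which in mice is needed for normal skeletal growth, was even across the libraries. Ltbp3 (ENSMUSG00000024940, chromosome 19, 5740904 to 5758532) measured 8.33, 9.25, 10.4 and 11.6 FPKM with PBS, then 9.45, 8.70, 8.51, 7.96 and 8.49 FPKM in ammonium acetate. All 5 ammonium acetate libraries lay below the PBS mean of 9.89 FPKM, and 4 of them inside the PBS range. For Ltbp3 the log2 fold change was -0.18 (interval -0.42 to 0.06, limma adjusted p = 0.530). It was -0.17 without ammonium acetate 6 and 8 and -0.01 with the correction for gene length.

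Ltbp2, which unlike its relatives does not bind latent TGF-beta, was close to the limit of detection and did not enter the test. Ltbp2 (ENSMUSG00000002020, chromosome 12, 84783212 to 84876532) measured 0.0348, 0.110, 0.0919 and 0.185 FPKM in PBS, on 8, 19, 26 and 42 reads. In ammonium acetate it measured 0.141, 0.130, 0.0518, 0.140 and 0.0461 FPKM, on 35, 22, 9, 32 and 11 reads. The 8 reads of PBS 4 carry a 95% exact Poisson interval of 3.45 to 15.8 reads, for counting error only. The lowest and the highest values were both PBS libraries, so the ammonium acetate values all lay within the PBS range.

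Among the binders, Ltbp4 and Ltbp3 together made up nearly the whole sum. Ltbp4 per Ltbp3 was 2.83, 3.01, 2.22 and 2.43 in the PBS libraries, and 2.40, 2.66 and 2.35 in ammonium acetate 4, 5 and 7. It was 1.06 in ammonium acetate 6 and 1.19 in ammonium acetate 8. The gene models are 5386 and 5190 bases long, and the part of gene length in this ratio was not tested. The binders summed to 38.4 ± 3.91 FPKM across the PBS libraries (SD, n = 4), against 27.2 ± 7.72 under ammonium acetate (SD, n = 5) and 32.6 ± 3.10 without libraries 6 and 8 (SD, n = 3). Per unit of summed ligand, binder transcript ran from 1.64 to 1.78 in PBS and from 0.965 to 1.58 in ammonium acetate, so this ratio did not overlap between the groups. Without libraries 6 and 8 it ran from 1.28 to 1.58 in ammonium acetate. This ratio was picked after its values were seen and was not tested. Over all tested genes 2.13% had groups that did not overlap, 0.873% on the lower side, and 0 of the 9 members did. These shares are for single genes and not for ratios of sums.

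The plot of deviations by library shows which members moved in common. Ltbp4 deviated by -1.06 in ammonium acetate 6 and by -0.91 in ammonium acetate 8 from its mean over the 9 libraries on the log2 scale. Ltbp1 deviated by -0.84 and -0.70, and Tgfbr3 by -0.59 and -0.77. Tgfbr1 deviated by -0.11 and 0.13, and Ltbp3 by -0.10 in both. Tgfbr1 (5756 bases) and Ltbp3 (5190 bases) stayed near their means in libraries in which Ltbp4 (5386 bases) and Tgfbr2 (4785 bases) were low. Ammonium acetate 6 and 8 were the 2 lowest libraries in 5 of the 9 tested members, in 21.9% of all tested genes, in 52.8% of the 2836 longest and in 3.07% of the 2835 shortest. The members' share is close to that of the long genes, and the part of gene length in the members' values was not tested.

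**Figure D3:**
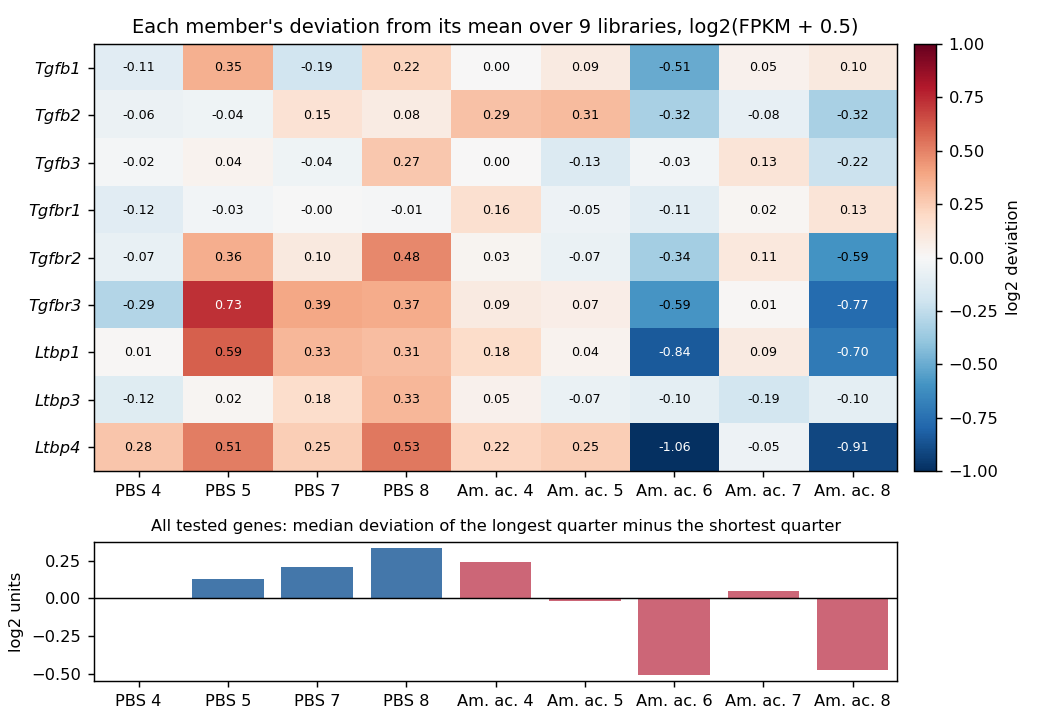
Upper panel, deviation of each of the 9 tested members from its own mean over the 9 libraries on the log2(FPKM + 0.5) scale (colour and number, Am. ac. for ammonium acetate). Lower panel, bars of the median deviation of the 2836 longest tested genes minus that of the 2835 shortest, in log2 units, where ammonium acetate 6 and 8 stand at -0.50 and -0.47.

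The pattern of each leading member over the 9 libraries was compared with all tested genes. Each gene's log2(FPKM + 0.5) was centred and divided by its SD, and likeness was the root mean square difference of the 9 values, 0 being the same pattern. The genes nearest to Ltbp4 were Parp4 (0.148), the tight junction scaffold gene Tjp1 (0.15), the smooth muscle myosin gene Myh11 (0.16), Notch3, a receptor of vascular smooth muscle (0.173), and Asap1 (0.177). The median of all tested genes lay at 1.16 from Ltbp4. These 5 genes were between 6164 and 8044 bases long. Nearest to Tgfbr2 were Ctdspl (0.149), Fnbp1 (0.157), the transcription factor gene Foxo3 (0.172), Rusc2 (0.175) and Pros1, which encodes the anticoagulant protein S (0.176). Nearest to Tgfb3 were Telo2 (0.172), Prss23 (0.25), Zbtb10 (0.327), Dcbld2 (0.331) and Zfp451 (0.335). Within the family the nearest pairs were Ltbp1 with Ltbp4 (0.277) and Ltbp1 with Tgfbr3 (0.31). The farthest was Tgfbr1 with Tgfbr2 (1.44).

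Several lists of markers of the cells between the fibres were low in the same libraries as these members, and others were not. The 7 fibro-adipogenic progenitor markers, of the connective tissue cells of muscle, summed to between 417 and 992 FPKM with PBS and between 452 and 659 in ammonium acetate. Within PBS, library 4 had both the lowest such sum and the lowest Tgfbr3 and Ltbp1, and library 5 had the highest of all 3. Ltbp4 did not follow that order, with PBS 7 lowest and PBS 8 highest, and the progenitor sum of PBS 4 (417) lay below those of ammonium acetate 6 (452) and 8 (477). The endothelial markers (9) summed to between 110 and 127 FPKM in PBS. In ammonium acetate they reached 59.3 in library 6 and 70.1 in library 8, and from 90.2 to 118 in the other 3. Pecam1, Cdh5, Kdr, Tek, Tie1 and Flt1 were each lowest in libraries 6 and 8. Emcn and the short Cldn5 and Egfl7 lay inside the range of the other libraries there. Cldn5 (1414 bases) stood at 11.7 and 8.97 FPKM, against 7.37 to 15.2 elsewhere. Egfl7 (1865 bases) stood at 3.34 and 3.58 FPKM, against 3.01 to 4.69. All 7 progenitor and all 9 endothelial markers had lower means in ammonium acetate, and none passed the test. Their median log2 fold changes were -0.24 and -0.38 (-0.09 and -0.18 without libraries 6 and 8). None of these markers was at 0 in any library. Their part in the difference of Tgfbr3, Ltbp1 and Ltbp4 was not tested.

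The markers of smooth muscle and pericytes did not all move alike in ammonium acetate 6 and 8. They summed to between 124 and 168 FPKM with PBS and between 109 and 162 in ammonium acetate, and 6 of 7 had lower means there. In ammonium acetate 6 and 8 the long transcripts were low, with Myh11 (6632 bases) at 1.44 and 1.42 FPKM against 3.52 to 6.39 in the other libraries and Notch3 (8044 bases) at 0.925 and 1.28 against 2.70 to 3.98. The short Acta2 (1781 bases) was also lowest there, at 23.9 and 24.5 FPKM against 25.3 to 41.2 elsewhere. Rgs5 (4096 bases) stood at 62.8 and 65.3 FPKM, against 64.3 to 91.7 elsewhere. Tagln (1586 bases), at 17.8 and 24.3 FPKM, lay inside the range of 17.7 to 30.0 of the other libraries. The part of gene length in these values was not tested. The macrophage sum, from 25.6 to 34.4 FPKM under ammonium acetate, lay above PBS 4 (18.6) and below PBS 5, 7 and 8 (at least 41.3). Tendon markers had a median log2 fold change of -0.57 (-0.31 without ammonium acetate 6 and 8). Their sum ran from 60.3 to 304 FPKM with PBS, in which libraries 5 and 8 were high, and from 53.0 to 159 FPKM under ammonium acetate. Adipocyte markers had a median of -0.60 (-0.16 without these libraries) and Schwann cell markers one of -0.34 (-0.09). The neutrophil sum, almost wholly S100a8 and S100a9, lay the other way. It was at least 2.27 FPKM in every ammonium acetate library and below that in every PBS library. Its defining genes Ly6g and Mpo were at 0 in most libraries. The 2 tested genes had a median log2 fold change of 1.12 (1.03 without ammonium acetate 6 and 8), and neither passed the test. Of all tested genes 2.13% had groups that did not overlap, a share for single genes and not for sums. The part of these cells in the members' values was not tested.

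The other genes of the pathway were taken from 5 lists of 55 genes, of which 50 reached the expression filter. None passed the test in either direction (0 higher, 0 lower). The mean was lower in ammonium acetate for 40 of the 50, and 4 reached an unadjusted p under 0.05, all on the lower side, beside 56.1% and 8.57% of all tested genes. The median log2 fold change of the 50 was -0.27, and -0.10 without ammonium acetate 6 and 8, beside -0.03 and -0.0013 over all tested genes.

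The scaffold that holds the latent complex had lower means in 9 of 9 tested genes, with a median log2 fold change of -0.43 (-0.21 without ammonium acetate 6 and 8). Hspg2, the basement membrane proteoglycan perlecan, had a mean of 13.9 ± 1.82 FPKM with PBS (SD, n = 4), against 8.82 ± 4.17 under ammonium acetate (SD, n = 5). Its values in ammonium acetate 6 and 8 were 4.10 and 4.53 FPKM. Fibronectin (Fn1) had a log2 fold change of -0.81 ± 0.34 and the small proteoglycan biglycan (Bgn) -0.59 ± 0.25, and each was lowest in the same 2 libraries. Without them the log2 fold changes were -0.22 for Hspg2, -0.37 for Fn1 and -0.24 for Bgn (limma adjusted p = 0.527 for each with all libraries). Fbn2 did not reach the filter.

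Of the genes that process or free the ligand, 10 of 11 tested had lower means, with a median log2 fold change of -0.36 (-0.16 without ammonium acetate 6 and 8). Mmp2, a matrix protease that can release TGF-beta, averaged 18.9 ± 6.80 FPKM with PBS (SD, n = 4), against 12.5 ± 3.44 under ammonium acetate (SD, n = 5). Lrrc32, the anchor of latent TGF-beta on cell surfaces, measured 2.33 ± 0.309 and 1.57 ± 0.639 FPKM, and Bmp1, a protease that cuts latent binders in the matrix, 3.87 ± 1.14 and 2.64 ± 0.712. Without ammonium acetate 6 and 8 the log2 fold change of Mmp2 went from -0.55 to -0.28, that of Lrrc32 from -0.51 to -0.20 and that of Bmp1 from -0.46 to -0.22. Itgb3 and Itgb8 did not reach the filter. Of the co-receptors, endoglin (Eng), which serves endothelial cells, measured 12.9 ± 2.20 and 9.89 ± 2.90 FPKM, and the endothelial type I receptor Acvrl1 5.26 ± 0.972 and 4.62 ± 0.617. Their log2 fold changes of -0.40 and -0.16 were -0.11 and -0.06 without ammonium acetate 6 and 8. Bambi and Cd109 were below the filter.

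The Smad list was the list with the median nearest to that of all genes. Of its 15 genes, 8 had lower means, with a median log2 fold change of -0.01 (0.04 without ammonium acetate 6 and 8). The inhibitory Smad genes lay lower, Smad6 at 2.64 ± 0.296 FPKM with PBS against 2.05 ± 0.424 under ammonium acetate, and Smad7, a feedback inhibitor induced by TGF-beta, at 2.16 ± 0.522 and 1.57 ± 0.395. Without ammonium acetate 6 and 8 their log2 fold changes went from -0.31 to -0.14 and from -0.36 to -0.16. Fkbp1a encodes the immunophilin that keeps the type I receptor inactive. It ran from 60.5 to 63.9 FPKM with PBS and from 64.0 to 78.4 FPKM under ammonium acetate, so all 5 values lay above all 4. Of all tested genes 2.13% had groups that did not overlap, in either direction. The log2 fold change of Fkbp1a, 0.17, did not pass the test (limma adjusted p = 0.527). Its highest values were 75.1 FPKM in library 6 and 78.4 in library 8, and its log2 fold change was 0.08 without them.

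Among the 13 target genes 11 had lower means, with a median log2 fold change of -0.32 (-0.15 without ammonium acetate 6 and 8). Tgfbi, a matrix protein named for its induction by TGF-beta, measured 4.28, 11.3, 8.73 and 11.9 FPKM with PBS, then 6.00, 7.91, 4.57, 5.34 and 3.91 FPKM in ammonium acetate. PBS 4 lay among the ammonium acetate values and the other 3 PBS libraries above all of them. Its log2 fold change was -0.60, and -0.39 without ammonium acetate 6 and 8. Col1a1, a chain of type I collagen, ranged from 17.2 to 81.3 FPKM with PBS and from 9.56 to 38.1 in ammonium acetate (log2 fold change -0.94 ± 0.48, standard error, limma adjusted p = 0.527), and the log2 fold change was -0.37 without ammonium acetate 6 and 8. Pmepa1, a target that dampens Smad signalling, lay on the other side at 7.41 ± 0.994 FPKM with PBS, against 8.90 ± 1.35 under ammonium acetate. Its log2 fold change was 0.25 (limma adjusted p = 0.527), and 0.21 without ammonium acetate 6 and 8.

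**Figure D4:**
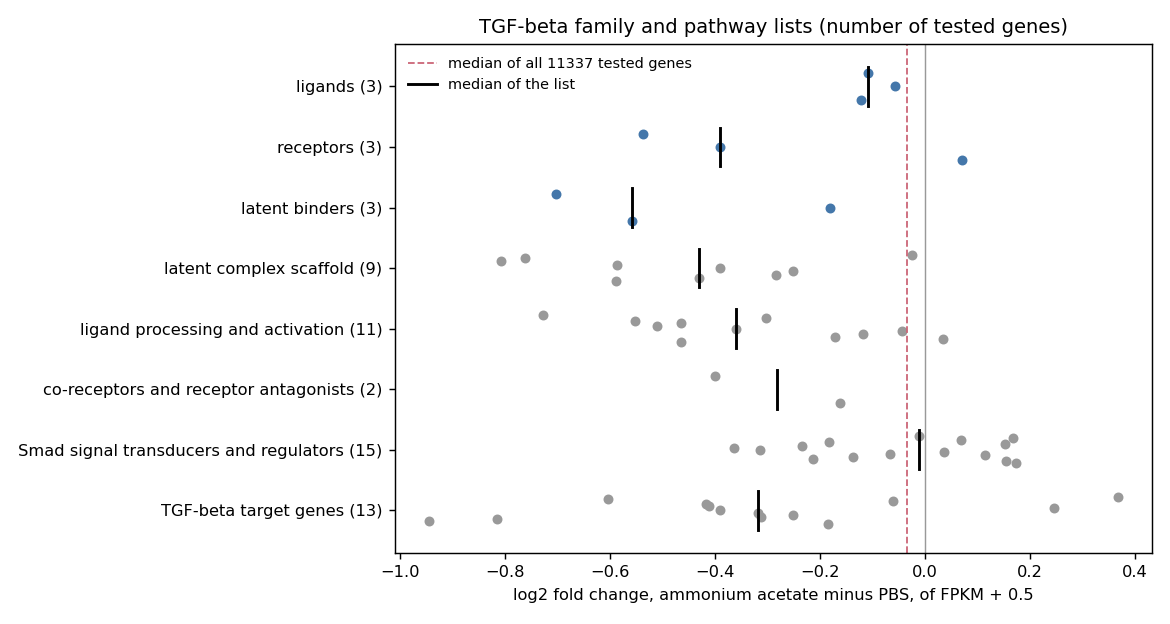
Log2 fold change of FPKM + 0.5 (ammonium acetate minus PBS, x axis) of each tested gene of the family (blue) and of the pathway lists (grey), with the number of tested genes beside each list name. The black bars are list medians, from -0.56 for the latent binders to -0.01 for the Smad list, and the dashed line is the median of all 11337 tested genes at -0.03.

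The loci of the family are partly linked. Tgfb1 and Ltbp4 lie on chromosome 7 with 31 protein-coding genes between them, and Ltbp2 and Tgfb3 lie on chromosome 12 with 1.18 Mb and 18 such genes between them. The root mean square difference of the patterns of Tgfb1 and Ltbp4 over the libraries was 0.856. The binder genes have many exons, from 28 in the longest coding transcript of Ltbp3 to 36 in that of Ltbp2 (GENCODE M21). Each ligand has 7. The gene models on which FPKM rests run from 2175 bases for Tgfb1 to 6769 for Ltbp2, and Ltbp1 spans 387 kb of the genome.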

How the data were processed

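The authors deposited FPKM values of 35275 genes in 1 table, beside symbols, lengths and mm10 coordinates. STAR, TopHat, HTSeq and DESeq2 are listed, without versions or roles, per the submitters' processing notes. Neither strand setting nor annotation release is given in the sources used here. After multiplication by gene length in kb the values of each library summed to 1000000, and 100.0% of values above 0 were whole reads within 0.05 read. No 2 libraries were identical.

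Genes with a mean of at least 0.5 FPKM were tested on log2(FPKM + 0.5) by limma 3.58.1 in R 4.3.3 (trended prior variance), a scale that understates changes of low genes. P-values were adjusted over all 11337 tested genes and measure the spread between libraries, which the labels do not tie to separate animals. The test was checked on simulated data with noise drawn independently for each gene and library. That check did not include deviations shared by many genes within a library. Plots used Python 3.11.15, pandas 2.3.3, numpy 2.4.6 and matplotlib 3.10.9.

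Members and lists were chosen with earlier results of these data known. All members were named, with the 3 genes of smallest p from each pathway list and the 5 nearest patterns to the most abundant ligand, receptor and binder. Alternatives covered the pseudocount (0.1, 1), filter (none, 2 FPKM), scaling, variance model, library weights, voom on recovered reads, the gene length trend (lowess, span 0.3), the replicate number as a block, left-out libraries and the threshold (0.10).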

Additional observations from a re-analysis of the deposited data

Results flagged for a closer look

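Of 78 sets of 1 gene in 1 group (39 named genes), 2 had a library far from the others by Dixon's criterion, which chance alone flags in about 1 of 20 sets. Tgfb1 stood at 2.18 FPKM in ammonium acetate 6, where the other 4 ammonium acetate libraries lay between 3.31 and 3.57 FPKM. Its gap to the nearest library was 0.813 of the group's range. Zbtb10, one of the genes nearest in pattern to Tgfb3, stood at 1.97 FPKM in PBS 8 against 1.36 to 1.43 in the other PBS libraries. It was named for its likeness to Tgfb3, which was also highest in PBS 8, so the rate of 1 of 20 does not apply to it.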

How the results depend on the processing

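The count of members past the threshold was 0, and that of all genes 0, under every alternative listed in the processing. The smallest adjusted p of a member under any of them was 0.321. The direction of 8 of the 9 members did not turn. Tgfb2, at -0.06 with all libraries, turned to 0.00018 with median-ratio scaling, 0.012 with upper-quartile scaling, 0.13 with library weights, 0.085 with the gene length trend removed, 0.017 with the replicate number as a block and 0.14 without ammonium acetate 6 and 8. With 1 library left out it ran from -0.14 to 0.018. The causes were not tested. Same-numbered libraries of the groups did not deviate together (correlations of -0.34 to -0.07). The labels do not say whether the numbers pair the libraries. These correlations cannot decide it, because they describe expression and not the design. The block, which removes ammonium acetate 6 from the comparison, gave 260 genes and 1 member at an unadjusted p under 0.05, against 972 and 4. With 1 library left out these counts ran from 305 to 1730 genes and from 0 to 5 members. Genes numbered 526 without PBS 5, 305 without PBS 8, 1730 without ammonium acetate 4, 509 without 6, 1656 without 7 and 413 without 8, and 256 without 6 and 8 together. The members numbered 1 without PBS 5, PBS 8 or ammonium acetate 6, 2 without PBS 7 and 0 without ammonium acetate 8. The log2 fold change of Ltbp4 ran from -0.84 to -0.51 with 1 library left out and was -0.39 with library weights. Depth limits Ltbp2, with 8 to 42 reads per library, and Ltbp2 had a log2 difference of -0.0074 (interval -0.19 to 0.18) when no filter was used.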
